A study of Mus musculus with 21 samples.

Results

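The genes described here are 9 transcription factors that build and maintain the macrophage lineage: Spi1 (which encodes PU.1), Irf8, Cebpa, Cebpb, Maf, Mef2c, Nr1h3 (LXRα), Bhlhe40 and Bhlhe41. They are named by symbol, with no measured value in the rule, and they are 9 of the 27179 gene IDs in the count table. All 9 passed the filter on low counts, which left 13275 genes to test. Sequencing measured RNA in 21 libraries from cells sorted from C57BL/6 mice, 3 libraries in each of 7 groups. The cells of 6 groups were cardiac macrophages, from untreated (naive) mice or from mice challenged with CAWS, a water-soluble complex of Candida albicans that is used to model Kawasaki disease. Each pool of hearts was split by surface markers into R1 (no Ccr2, low MHC-II), R2 (no Ccr2, high MHC-II) and R3 (Ccr2 present, high MHC-II). The group for comparison held monocytes with surface Ccr2 from the spleens of naive mice. Each group holds 3 independent pools of mice, so single animals cannot be compared. The sources used here do not give the number of mice in a pool, their age and sex, the dose of CAWS or the time after it. Organ and cell type cannot be told apart in the comparisons with monocytes.

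PU.1 is the ETS factor that opens myeloid enhancers, and it binds them together with partners such as IRF8 and the C/EBP proteins. c-Maf and MEF2C are linked to resident macrophage programmes, and LXRα is the oxysterol receptor that turns on genes for cholesterol export and lipid synthesis. BHLHE40 and BHLHE41 are closely related repressors that bind E-boxes, act within the circadian clock and, in macrophages, are known for supporting self-renewal.

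Total counts per library ran from 12800136 to 23006155, with a median of 16763449. Levels are given as CPM on TMM-adjusted library sizes and, to compare genes with each other, as RPKM, which also divides by the counted length. Errors are SDs over 3 libraries, and differences are log2 fold changes ± SE from edgeR's quasi-likelihood test over all 21 libraries, called when the adjusted p was under 0.05. Macrophage markers (9 of 9 detected) summed to 29162 to 30791 CPM in naive R1, 27935 to 30328 in R2 and 20023 to 22479 in R3. After CAWS they summed to 26986 to 28948, 25371 to 26402 and 17598 to 19126, and in the monocytes to 4283 to 4947. Classical monocyte markers (9 of 9 detected) summed to 23.3 to 39.6 CPM in R1 of naive mice, 34.0 to 50.1 in R2 and 2193 to 2889.8 in R3. After CAWS they summed to 86.1 to 299.9 in R1, 317 to 512 in R2 and 3775 to 4450.2 in R3, against 8932 to 12712 in the monocytes. In sorted bulk samples, fewer cells of a type and less RNA per cell cannot be told apart. Results were also computed without naive R1 replicate 2, naive R3 replicate 2, whose fibroblast markers reached 219 CPM, and monocyte replicate 2. Each of these 3 had the lowest mean correlation with the other libraries of its own group (0.968, 0.964 and 0.975), and the other naive R1 and naive R3 libraries (0.967 to 0.973) had lower ones than the monocyte library.

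Per length, Spi1 stood first among the 9 in each of the 6 macrophage groups, from 318 ± 9.35 RPKM in naive R1 to 389 ± 35.9 RPKM in CAWS R3. Maf and Cebpa took the next places in all 6, and Irf8, Cebpb and Mef2c followed. In naive R1 the libraries of Spi1 and Maf (308 ± 6.97 RPKM) overlapped. Bhlhe41, Nr1h3 and Bhlhe40 filled the lowest places in every macrophage group. In the monocytes Cebpb led with 853 ± 498 RPKM, and its 3 libraries overlapped the level of Spi1 (537 ± 8.93 RPKM), while Bhlhe41 was last.

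**Figure D1:**
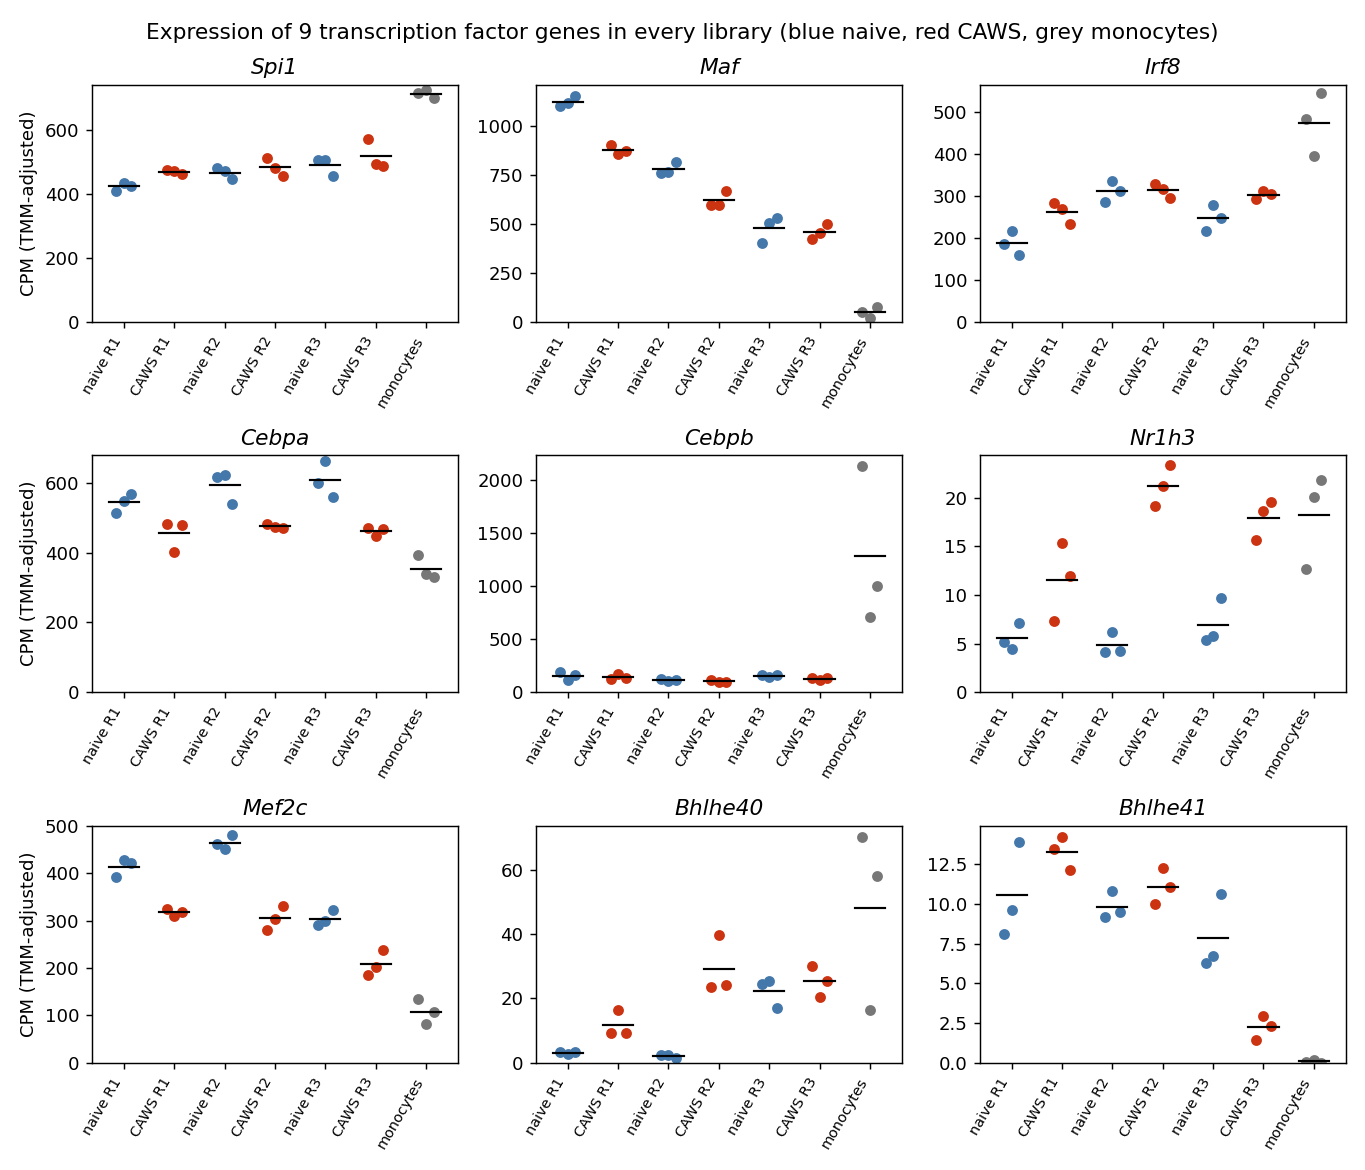
TMM-adjusted CPM (linear axes from 0) of the 9 genes in each of 21 libraries, with naive groups in blue, CAWS groups in red, monocytes in grey and the group mean as a black line. Maf steps down from R1 to R3 and is lowest in monocytes, Nr1h3 is higher in every CAWS population than in its naive counterpart on average, and Bhlhe41 is lowest in CAWS R3 and monocytes.

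The first comparison set cardiac macrophages against splenic monocytes. Maf, Cebpa, Mef2c and Bhlhe41 were higher in naive R1 than in monocytes, and Spi1, Irf8, Cebpb, Nr1h3 and Bhlhe40 were lower, so all 9 genes passed. Of all genes tested, 32.5% were higher and 30.8% lower. The same 4 were higher and the same 5 lower in naive R2 (33.1% and 30.5% of all genes), naive R3 (31.9% and 27.1%) and CAWS R1 (33.0% and 30.3%). In CAWS R2 these 4 were higher (32.4%) and 3 were lower (28.8%), without Nr1h3 and Bhlhe40. In CAWS R3 the 4 were higher (24.8%) and 4 were lower (22.8%), without Nr1h3. These shares of all genes are high, and nothing is read from the counts among the 9. The 6 comparisons share the 3 monocyte libraries.

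**Figure D2:**
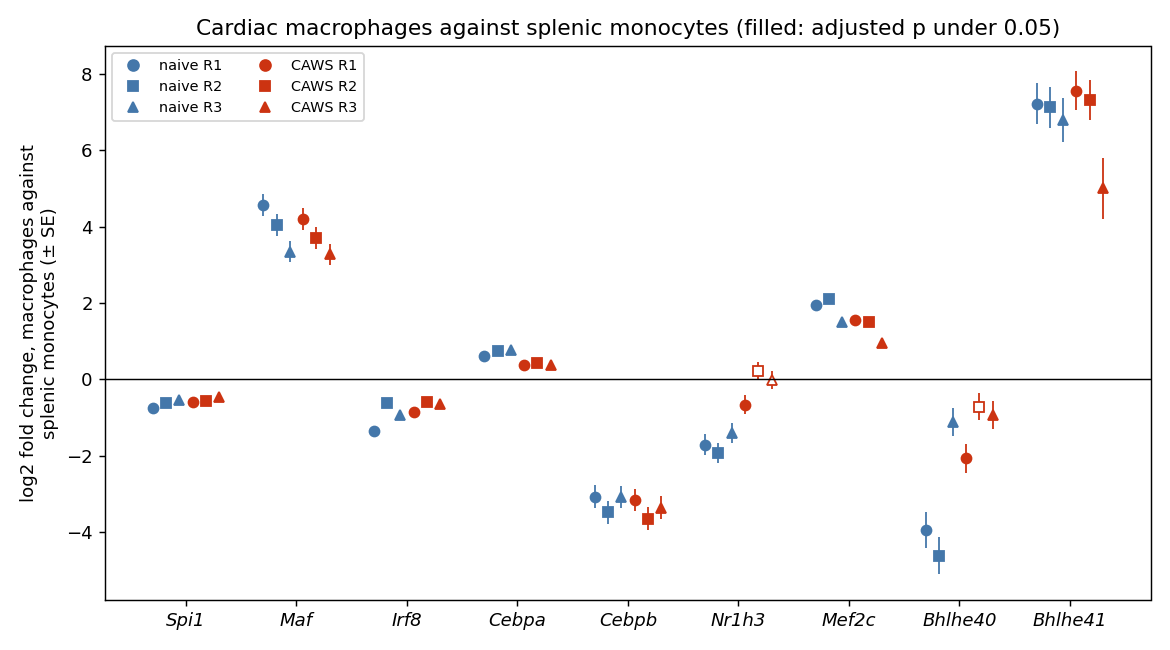
Log2 fold changes of the 9 genes in each cardiac macrophage group against splenic monocytes, with SE bars, and filled symbols where the adjusted p was under 0.05. Values for Nr1h3 approach or cross 0 after CAWS in R2 and R3, and Bhlhe41 is lower in CAWS R3 than in the other 5 macrophage groups.

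The next comparisons set the 3 macrophage populations against each other within each treatment. In naive mice, Irf8 was higher in R2 than in R1 (1 of 9, beside 3.88% of all genes). Irf8 and Bhlhe40 were higher in R3 than in R1 (12.5%) and Maf and Mef2c were lower (10.7%). Against R2, R3 had higher Bhlhe40 (6.63%) and lower Mef2c (5.77%). After CAWS, Nr1h3 was higher in R2 than in R1 (1 of 9, beside 2.46%). Bhlhe40 was higher in R3 than in R1 (13.1%), and Maf, Mef2c and Bhlhe41 were lower (3 of 9, beside 16.3%). Mef2c and Bhlhe41 were lower in R3 than in R2 (2 of 9, beside 9.76%). The naive and the CAWS libraries of each population serve several of these comparisons. The last set asked what CAWS changed in each population. In R1 Irf8, Nr1h3 and Bhlhe40 rose (3 of 9, where 6.07% of all genes rose). In R2 Nr1h3 and Bhlhe40 rose (2 of 9, where 6.79% rose) and Cebpa and Mef2c fell (2 of 9, where 3.50% fell). In R3 Nr1h3 rose (1 of 9, where 6.70% rose) and Cebpa, Mef2c and Bhlhe41 fell (3 of 9, where 8.29% fell). The median log2 fold change over the 9 genes was 0.15 in R1, 0.01 in R2 and -0.07 in R3, beside 0.03, 0.02 and -0.06 over all genes tested.

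**Figure D3:**
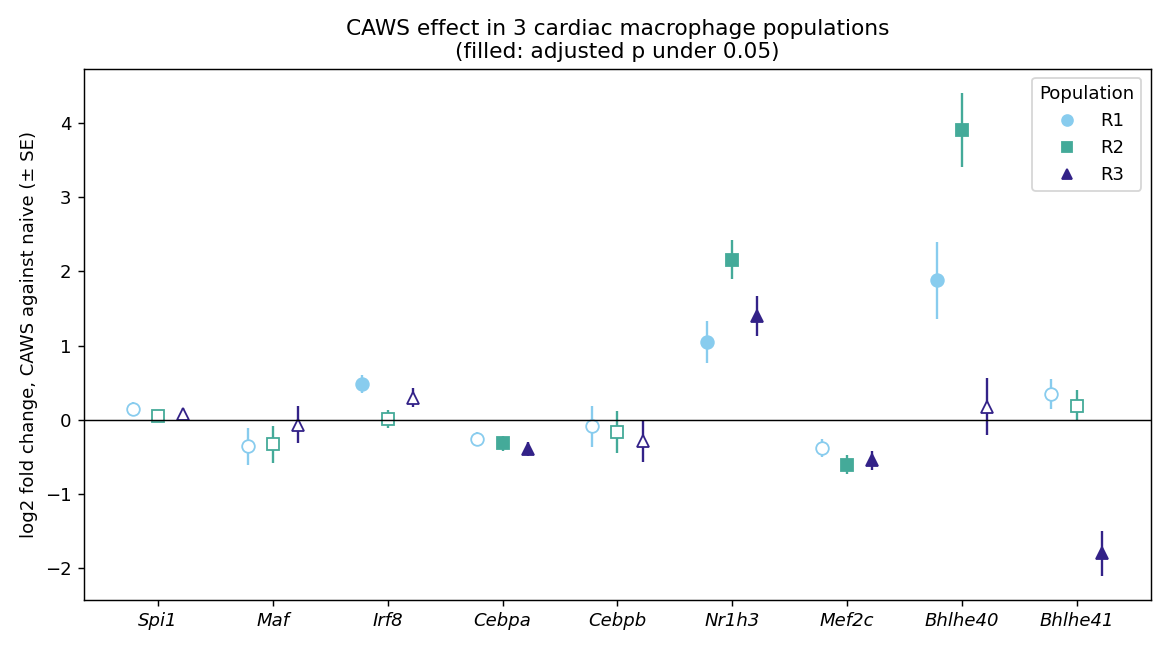
Log2 fold change between CAWS and naive libraries of the same population for each of the 9 genes, with SE bars, R1 as circles, R2 as squares and R3 as triangles, filled where the adjusted p was under 0.05. Nr1h3 lies above 0 and filled in all 3 populations, Bhlhe40 stands at 3.91 in R2 and near 0 in R3, and Bhlhe41 falls in R3.

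Whether the CAWS effect differed between populations was tested as an interaction. Bhlhe41 passed between R3 and R1 (1 of 9, against 2.26% of all genes), and Bhlhe40 and Bhlhe41 passed between R3 and R2 (2 of 9, against 2.33%). Between R2 and R1, edgeR's test passed 0 of the 9 (0.0527% of all genes), and DESeq2 passed 1, Bhlhe40. In edgeR's test, 3 of the 9 had an unadjusted p under 0.05, beside 702 of the 13275 genes tested. Other effects that passed in one population and not in another are not shown to differ between them.

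Spi1 and Irf8, the PU.1 core and its partner, were both expressed in every library and both highest in monocytes. Spi1 (gene ID 20375, chr2:91082374-91115759 in GRCm38.p6) measured 716, 727 and 703 CPM in the 3 monocyte libraries, above all 18 macrophage libraries, which ran from 411 to 574 CPM. Its monocyte level was 1.69-fold that of naive R1 and 1.38-fold that of CAWS R3, the ends of the range of fitted differences (log2 fold changes -0.75 ± 0.08, adjusted p = 5.21e-08 and -0.46 ± 0.08, adjusted p = 7.35e-05). In naive mice the macrophage values were 411, 435 and 426 CPM for R1, 482, 471 and 447 for R2 and 507, 508 and 457 for R3. After CAWS they were 474, 473 and 464 in R1, 514, 480.3 and 457 in R2 and 574, 494 and 488 in R3. Naive R1 lay lowest and did not overlap any other group. R3 was above R1 in naive mice by 0.21 ± 0.08, which missed the threshold (adjusted p = 0.0685) and passed by DESeq2 (0.0467). The CAWS effects were 0.15 ± 0.08 in R1, 0.05 ± 0.08 in R2 and 0.08 ± 0.08 in R3, and none passed (adjusted p = 0.289, 0.77 and 0.559), with 95% intervals of -0.03 to 0.33, -0.13 to 0.23 and -0.10 to 0.26 on the log2 scale.

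Around Spi1, the ETS family and partners list (17 genes tested) had 1 member higher after CAWS in R1, Ets1 (0.98 ± 0.17, adjusted p = 0.000844), and 1 higher in R2, Spib (3.47 ± 0.50, adjusted p = 3.79e-05). With CAWS in R1, 3 of 4 NK cell markers tested and 1 of 2 T cell markers tested also rose. The NK cell sum was 0.993 to 2.34 CPM in naive R1 and 6.50 to 24.1 in CAWS R1, and the part of these markers in the Ets1 rise was not tested. Spib encodes the closest relative of PU.1, and it went from 0.841 ± 0.667 to 9.08 ± 4.67 CPM in R2. In R3 Spib measured 2.38 ± 1.06 CPM before and 2.69 ± 0.709 CPM after CAWS, and the difference between the R3 and R2 effects passed (-3.31 ± 0.78, adjusted p = 0.0164). Among the others, 2 fell in R3, Runx1 (-0.48 ± 0.15, adjusted p = 0.0345) and Runx3 (-0.70 ± 0.22, adjusted p = 0.0373), both Runt factors of blood cells. The list's medians were 0.02, -0.17 and -0.12. Of 16 genes that depend on PU.1, 4 rose (beside 6.07% of all genes) and 1 fell in R1. In R2, 2 of them fell (3.50%), and in R3 2 rose (6.70%) and 2 fell (8.29%). The 5 of R1 became 2 to 4 with 1 library left out at a time. Csf3r, the G-CSF receptor, rose in R1 (0.65 ± 0.12, adjusted p = 0.00119) and R3 (0.92 ± 0.12, adjusted p = 1.21e-05), and Tlr4, the endotoxin receptor, fell in R1 (-0.55 ± 0.14, adjusted p = 0.0121), R2 (-0.63 ± 0.14, adjusted p = 0.00371) and R3 (-0.53 ± 0.14, adjusted p = 0.0122). Csf1r, the receptor for the macrophage growth factor M-CSF, fell in R2 (-0.30 ± 0.09, adjusted p = 0.0394) and R3 (-0.38 ± 0.09, adjusted p = 0.00854).

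Irf8 (gene ID 15900, chr8:120736358-120756694), an interferon-regulatory factor that partners PU.1, was lowest in naive R1 and rose there with CAWS. Its 250 bases before a RefSeq start, chr8:120736108-120736357 on the plus strand of GRCm38.p6, are shown because they hold the interferon-γ type STAT motif TTCNNNGAA (in capitals) at 2 places, 171 and 153 bases before the start.

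Irf8: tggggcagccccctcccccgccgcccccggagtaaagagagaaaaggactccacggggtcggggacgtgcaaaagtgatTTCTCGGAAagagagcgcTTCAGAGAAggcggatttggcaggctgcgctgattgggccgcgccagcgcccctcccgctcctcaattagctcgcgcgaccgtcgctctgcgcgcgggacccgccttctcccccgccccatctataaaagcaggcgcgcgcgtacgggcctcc

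The motif was searched on both strands, the 2 matches do not overlap another motif searched, and 7.02% of 32851 RefSeq windows of this length hold at least 1. The other RefSeq window of Irf8 holds none. A window of Mef2c, which was lower after CAWS, holds the motif 157 bases before its start. A match describes the letters only.

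Irf8 measured 185, 216 and 159.9 CPM in naive R1 and 282, 268 and 233 in CAWS R1, with every CAWS library above every naive one. The log2 fold change was 0.48 ± 0.13, adjusted p = 0.0181. This call was lost without naive R1 replicate 1, naive R1 replicate 3, CAWS R1 replicate 1 or CAWS R1 replicate 2 (adjusted p from 0.0596 to 0.110). R2 measured 285, 336 and 311 CPM naive and 327, 317 and 294 after CAWS, with overlapping groups and a log2 fold change of 0.01 ± 0.12 (adjusted p = 0.976, 95% interval -0.26 to 0.28). R3 measured 215, 278 and 247 CPM naive and 292, 312 and 304 after CAWS. All 3 CAWS R3 libraries lay above the naive ones, and the fold change of 0.30 ± 0.13 missed the threshold (adjusted p = 0.117), while it passed without the 3 libraries named above (0.39 ± 0.11, adjusted p = 0.0111) and with only the 18 macrophage libraries (adjusted p = 0.0285). None of the interactions between populations passed for Irf8.

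Among naive populations Irf8 was higher in R2 than in R1 (0.73 ± 0.13, adjusted p = 0.000508) and higher in R3 than in R1 (0.40 ± 0.13, adjusted p = 0.0233). The latter call was lost without naive R1 replicate 1, naive R1 replicate 3 or naive R3 replicate 2 (adjusted p from 0.0618 to 0.137). Of 7 markers of cDC1, dendritic cells that depend on IRF8, 3 were higher in naive R2 than in naive R1 and 4 in naive R3, with sums of 531 to 571 and 497 to 675 CPM against 289 to 323 in R1. The defining markers Xcr1 and Clec9a measured 0.115 ± 0.2 and 0.0165 ± 0.0286 CPM in naive R1, 0.375 ± 0.262 and 3.78 ± 0.278 in R2 and 1.04 ± 0.76 and 9.86 ± 0.95 in R3. With CAWS in R1, 2 of the 7 rose, and the sum was 292 to 316 CPM. The part of these markers in the Irf8 values was not tested. After CAWS the R2 and R1 groups differed by 0.26 ± 0.13 and the R3 and R1 groups by 0.22 ± 0.13, which did not pass (adjusted p = 0.354 and 0.209). The monocytes measured 483, 394 and 545 CPM, above every macrophage library, and the fitted difference ran from -1.34 ± 0.13 in naive R1 to -0.60 ± 0.13 in CAWS R2. Of 7 other interferon-regulatory factors tested, Irf1, the interferon-γ responsive activator, was the 1 that rose with CAWS in each population, by 0.51 ± 0.14, 0.43 ± 0.14 and 0.56 ± 0.14 (adjusted p = 0.0223, 0.0471 and 0.00863). With 1 library left out, this call was lost in 3 of 6 cases in R1 and 4 of 6 in R2. Irf4 fell in R3 (-0.50 ± 0.12, adjusted p = 0.00676), and its R3 effect differed from that in R2 (-0.65 ± 0.17, adjusted p = 0.0382). Irf5 was higher in R3 than in R1 in naive mice (0.78 ± 0.09, adjusted p = 1.03e-06) and after CAWS (0.68 ± 0.09, adjusted p = 4.54e-06).

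The 2 C/EBP genes split the macrophages from the monocytes in opposite directions. Cebpa (gene ID 12606, chr7:35119293-35121928), which starts myeloid commitment, was the more abundant of the pair in macrophages, and Cebpb (gene ID 12608, chr2:167688915-167690432), which inflammatory signals induce, was the more abundant in monocytes. Per length, Cebpa made up 64.4% to 74.7% of the pair's summed RPKM on average in the 6 macrophage groups and 15.6% ± 5.96 in the monocytes. Cebpb measured 2130.4, 712 and 1005 CPM in the monocytes, and all 18 macrophage libraries lay between 94.7 and 185 CPM. The fitted difference was largest for CAWS R2 (-3.66 ± 0.30, adjusted p = 8.93e-09). Monocyte replicate 1 was the highest in Cebpb and also the highest in Atf3, an immediate-early stress gene picked after its values were seen, at 1209 CPM against 365 and 545 in the other monocyte libraries. Fos, also picked afterwards, was at 3507 to 4222 CPM in the monocytes and 80.9 to 596 CPM in the macrophages. The part of such early-response genes in the Cebpb difference was not tested.

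Cebpb did not pass in any CAWS comparison, with -0.09 ± 0.28 in R1, -0.17 ± 0.28 in R2 and -0.29 ± 0.28 in R3 (adjusted p = 0.903, 0.781 and 0.531). The 95% intervals of -0.68 to 0.51, -0.77 to 0.43 and -0.88 to 0.31 leave room for changes of that size in either direction. That fit takes in the spread of the monocytes, 1282 ± 749 CPM. The R3 groups did not overlap, at 142 to 156 CPM naive and 112 to 131 after CAWS, and those of R1 and R2 did. None of the 3 CAWS effects passed in any alternative run. With only the groups compared, Cebpb was higher in naive R3 than R2 (adjusted p = 0.00744) and in CAWS R3 than R2 (0.0392). It was lower in CAWS R2 than R1 (0.0182). None of these differences passed over all 21 libraries.

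Cebpa fell with CAWS in R2 and R3. It measured 515, 549 and 567 CPM in naive R1 and 483, 402 and 480.3 in CAWS R1. R2 went from 618, 622 and 539 to 481, 472 and 471 CPM, and R3 from 599, 662 and 560.0 to 469.6, 447 and 469 CPM. In each population every CAWS library lay below every naive one. The fall passed in R2 (-0.32 ± 0.10, adjusted p = 0.0344) and R3 (-0.39 ± 0.10, adjusted p = 0.00726), and R1 showed -0.26 ± 0.10 (adjusted p = 0.1), which passed with only the 18 macrophage libraries (adjusted p = 0.0427). The R2 call was lost when naive R2 replicate 1 or 2 or any CAWS R2 library was left out (adjusted p from 0.0805 to 0.128). Cebpa did not pass between populations under either treatment, and the difference of its effects between populations did not pass (R3 against R1 -0.14 ± 0.13, adjusted p = 0.732). The monocytes, at 392, 339.7 and 331 CPM, lay below all macrophage libraries, by 0.36 ± 0.10 against CAWS R1 and 0.78 ± 0.10 against naive R3.

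Of 10 genes listed as other C/EBP proteins and their regulators, 1 rose (beside 6.07% of all genes) and 1 fell with CAWS in R1. In R2 1 fell (3.50%), and in R3 3 fell (8.29%). The medians were -0.07, -0.25 and -0.22. Cebpg, a C/EBP without an activation domain, fell in R1 (-0.38 ± 0.10, adjusted p = 0.015), R2 (-0.34 ± 0.10, adjusted p = 0.0255) and R3 (-0.41 ± 0.10, adjusted p = 0.00573). In R3 it was joined by Atf4, the stress-response partner of C/EBP proteins (-0.57 ± 0.15, adjusted p = 0.0129), and Cebpz (-0.44 ± 0.13, adjusted p = 0.0267). Cebpz is on the list by its symbol and is not a member of the C/EBP family. Of 11 C/EBP-dependent myeloid genes, 2 rose in R1 (beside 6.07% of all genes), 1 in R2 (6.79%) and 3 in R3 (6.70%). The acute-phase gene Saa3 was among those that rose in each. Saa3 held few counts in naive libraries, at 0.172 ± 0.257 CPM in R1, 0.0452 ± 0.0782 in R2 and 0.496 ± 0.669 in R3, and measured 56.3 ± 15.9, 12.2 ± 2.12 and 6.41 ± 6.34 CPM after CAWS (adjusted p = 1.3e-07, 2.15e-05 and 0.00349).

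Maf stepped down from R1 to R2 to R3 in both treatments and was lowest in monocytes. Maf (gene ID 17132, chr8:115703253-115706894) is a large bZIP factor of resident macrophages. In naive mice it measured 1102, 1115 and 1151 CPM in R1, 759, 765 and 813 in R2 and 403, 505 and 527 in R3. After CAWS it measured 899, 855 and 870.5 in R1, 594, 594 and 666 in R2 and 420.5, 454 and 496 in R3. Within each treatment the 3 populations did not overlap, with R1 highest and R3 lowest. The monocytes stood far below at 49.96, 18.4 and 72.1 CPM, with replicate 2 the lowest, and the difference from naive R1 was 4.57 ± 0.29, adjusted p = 1.44e-10. R3 was lower than R1 in naive mice (-1.23 ± 0.25, adjusted p = 0.00143) and after CAWS (-0.94 ± 0.25, adjusted p = 0.00862).

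In R1 and R2, every CAWS library lay below every naive library in Maf, and the fold changes of -0.36 ± 0.25 and -0.33 ± 0.25 did not pass in the fit over all 21 libraries (adjusted p = 0.42 and 0.454). That fit takes in the spread of the monocytes, 46.8 ± 27.0 CPM. With only the 18 macrophage libraries, an alternative chosen after the data were seen, both passed (R1 -0.36 ± 0.09, adjusted p = 0.0058, and R2 -0.35 ± 0.09, adjusted p = 0.00648). The same setting passed the steps between naive R2 and R1 (-0.52 ± 0.09, adjusted p = 0.000165), naive R3 and R2 (-0.71 ± 0.09, adjusted p = 1.87e-06), CAWS R2 and R1 (-0.50 ± 0.09, adjusted p = 0.000554) and CAWS R3 and R2 (-0.40 ± 0.09, adjusted p = 0.00129). None of these 6 passed with edgeR over all 21 libraries, and all 6 passed in fits of only the groups compared. In R3 the naive and CAWS groups overlapped, with a fold change of -0.07 ± 0.25, adjusted p = 0.891.

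In naive mice, 5 of 9 macrophage markers were lower in R3 than in R1, and 6 of 9 classical monocyte markers were higher. After CAWS, 6 of 9 macrophage markers were lower in R3 than in R1 and 1 higher, and 6 of 9 monocyte markers were higher. Their part in what follows was not tested. Of 15 genes linked to Maf in macrophages, 10 were lower in naive R3 than in naive R1, beside 10.7% of all genes (median -1.11, all genes 0.03). In CAWS R3, 11 were lower than in CAWS R1, beside 16.3% (median -1.33, all genes -0.03). The scavenger receptor Cd163 (-1.80 ± 0.19, adjusted p = 7.74e-07), the bridging ligand Gas6 (-1.79 ± 0.19, adjusted p = 8.92e-07) and the transglutaminase subunit F13a1 (-1.85 ± 0.20, adjusted p = 1.2e-06) had the smallest p in naive mice. With CAWS, 7 of the 15 fell (beside 8.29% of all genes) and 1 rose (6.70%) in R3, 1 fell in R1 and 1 rose in R2 (6.79%). The 8 that passed in R3 became 5 without CAWS R3 replicate 2. Cd163 (-2.09 ± 0.19) and Lyve1, a hyaluronan receptor of resident macrophages (-3.13 ± 0.35), fell in R3 (adjusted p = 3.99e-07 and 1.13e-05). Both falls were larger than in R2 (interactions -1.87 ± 0.27, adjusted p = 0.00031 and -2.25 ± 0.45, adjusted p = 0.0102). The classical monocyte markers were higher in CAWS R3 than in naive R3 in 2 of 9 genes by the same test, and their part was not tested.

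Mef2c was lower in R3 than in the other 2 populations and lower after CAWS. Mef2c (gene ID 17260, chr13:83504017-83667079) is a MADS-box factor. In naive mice it measured 392, 428 and 423 CPM in R1, 461, 451 and 480.5 in R2 and 291, 300.3 and 322 in R3. After CAWS the values were 325, 310.1 and 319 in R1, 281, 303 and 332 in R2 and 184, 202 and 239 in R3. Naive and CAWS libraries did not overlap in any population, and CAWS R1 and R2 sat at about the level of naive R3. The fall passed in R2 (-0.60 ± 0.13, adjusted p = 0.00315) and R3 (-0.55 ± 0.13, adjusted p = 0.00579). In R1 it was -0.38 ± 0.13 (adjusted p = 0.0642), and it passed by DESeq2 (adjusted p = 0.0292) and with only the 18 macrophage libraries (0.0031). The R3 call was lost without CAWS R3 replicate 1 (adjusted p = 0.0554). The interactions for Mef2c did not pass (R3 against R2 0.06 ± 0.18, adjusted p = 0.955).

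R3 was lower than R1 in Mef2c in naive mice (-0.44 ± 0.13, adjusted p = 0.0133) and after CAWS (-0.61 ± 0.13, adjusted p = 0.000933), and lower than R2 likewise (-0.61 ± 0.13, adjusted p = 0.00234 and -0.55 ± 0.13, adjusted p = 0.00447). The naive R3 and R1 call was lost without naive R3 replicate 1 (adjusted p = 0.0562), and the CAWS R3 and R2 call without CAWS R3 replicate 1 (adjusted p = 0.0544). Of 9 classical monocyte markers, 6 were higher in R3 than in R1 under either treatment. Against R2, 8 were higher in naive R3 and 4 in CAWS R3. Their part in the Mef2c values was not tested. The monocytes, at 134, 80.8 and 107 CPM, lay below every macrophage library, by 0.95 ± 0.13 against CAWS R3 and 2.11 ± 0.13 against naive R2. Mef2a and Mef2d, its relatives, did not pass with CAWS in any population, the largest being Mef2d in R3 (-0.38 ± 0.18, adjusted p = 0.172). Per length Mef2c made up 46.5% ± 1.93 of the summed RPKM of Mef2c and Mef2a in naive R1, 39.3% ± 1.49 in CAWS R3 and 23.1% ± 2.20 in the monocytes. Of 8 other MEF2 family genes and class IIa deacetylases, which bind MEF2 proteins, 1 was lower in naive R3 than in naive R1, Hdac9 (-0.69 ± 0.18, adjusted p = 0.00634), and 1 higher, Hdac7 (0.78 ± 0.23, adjusted p = 0.0149).

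Nr1h3 was the 1 gene of the 9 that passed with CAWS in all 3 populations, and it rose in each. Nr1h3 (gene ID 22259, chr2:91184061-91202829) encodes LXRα. It measured 5.20, 4.41 and 7.15 CPM in naive R1 and 7.31, 15.3 and 11.9 in CAWS R1. R2 went from 4.16, 6.14 and 4.19 to 19.2, 21.2 and 23.4 CPM and R3 from 5.33, 5.78 and 9.66 to 15.6, 18.6 and 19.6 CPM. Every CAWS library lay above every naive library of its population, narrowly in R1. The fitted change was 2.07-fold in R1, 4.46-fold in R2 and 2.63-fold in R3 (log2 fold changes 1.05 ± 0.28, adjusted p = 0.0219, 2.16 ± 0.27, adjusted p = 1.23e-05 and 1.39 ± 0.27, adjusted p = 0.0012). The R1 call was lost without naive R1 replicate 1 or 2 or CAWS R1 replicate 2 or 3 (adjusted p from 0.0656 to 0.143). None of the interactions passed (R2 against R1 1.11 ± 0.40, adjusted p = 0.638, R3 against R2 -0.77 ± 0.39, adjusted p = 0.478). Counts were low, from 71 to 391 per library. The annotation lets Nr1h3 overlap Acp2 at one end, and since the strand setting of the counting is not given, reads there cannot be assigned. Acp2 measured 256 ± 5.62 CPM in naive R2 and 284 ± 16.4 in CAWS R2.

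After CAWS, Nr1h3 was higher in R2 than in R1 (0.89 ± 0.24, adjusted p = 0.0383), a call lost without CAWS R1 replicate 1 or 3 or any CAWS R2 library (adjusted p from 0.0649 to 0.236). R3 was above R1 by 0.65 ± 0.25 (adjusted p = 0.0539), which passed with a block for the pool inside each treatment (0.0385). The monocytes measured 12.7, 20.1 and 21.9 CPM. CAWS R1 differed from them by -0.67 ± 0.25, adjusted p = 0.0215, a call lost with limma voom (0.122), with only the groups compared (0.112), without the 3 libraries named above (0.0606), and without CAWS R1 replicate 1 or monocyte replicate 2 or 3 (0.0503 to 0.126). They lay above all 9 naive macrophage libraries and overlapped all 3 CAWS groups, and CAWS R2 and R3 did not differ from them past the threshold (0.22 ± 0.23, adjusted p = 0.422 and -0.02 ± 0.24, adjusted p = 0.956, 95% intervals -0.28 to 0.72 and -0.54 to 0.50). Of the 9 classical monocyte markers, 4 rose with CAWS in R1, 7 in R2 and 2 in R3, and their part in the Nr1h3 rise was not tested.

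LXRβ, encoded by Nr1h2, did not pass with CAWS in R1, R2 or R3 (0.07 ± 0.10, 0.02 ± 0.10 and -0.07 ± 0.10, adjusted p = 0.718, 0.947 and 0.675). Nr1h3 went from 4.92% ± 1.08 to 18.5% ± 2.62 of the summed RPKM of the 2 receptors in R2. Of 16 LXR target genes, 4 rose (beside 6.07% of all genes) and 1 fell in R1. In R2, 5 of them rose (6.79%), and in R3 6 rose (6.70%) and 2 fell (8.29%). The list's medians were 0.19, 0.40 and 0.10, beside 0.03, 0.02 and -0.06 over all genes. With 1 library left out at a time, 2 to 4 passed in R1, 4 to 5 in R2 and 3 to 6 in R3. The desaturase Scd2 rose in R1 (1.42 ± 0.25, adjusted p = 0.000849) and R2 (1.73 ± 0.22, adjusted p = 2.15e-05), as did the cholesterol exporter Abcg1 (0.88 ± 0.16, adjusted p = 0.00107 and 1.05 ± 0.16, adjusted p = 9.19e-05). The phosphodiesterase Smpdl3a rose in R1 (0.61 ± 0.16, adjusted p = 0.0168), R2 (0.98 ± 0.16, adjusted p = 0.000275) and R3 (0.77 ± 0.16, adjusted p = 0.00187). In R3 the phospholipid transfer protein Pltp rose (0.41 ± 0.10, adjusted p = 0.00962) and Mylip, which degrades the LDL receptor, fell (-0.75 ± 0.13, adjusted p = 0.000365). In the monocytes Scd2, Abcg1 and Smpdl3a measured 120.3 ± 22.4, 129 ± 23.7 and 1082 ± 143 CPM, beside 8.74 ± 1.64, 49.2 ± 3.84 and 110.1 ± 20.4 in naive R1 and 23.6 ± 8.11, 90.3 ± 13.6 and 168 ± 25.0 in CAWS R1. Among 12 nuclear receptors and partners of LXR, Pparg, the fatty acid sensor, rose in R1 (1.24 ± 0.22, adjusted p = 0.00119) and R3 (0.83 ± 0.19, adjusted p = 0.0051), Vdr, the vitamin D receptor, rose in R2 from 0.103 ± 0.178 to 3.34 ± 0.516 CPM (adjusted p = 0.000161), and Rxra, the shared partner of these receptors, fell in R3 (-0.68 ± 0.16, adjusted p = 0.00636).

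Bhlhe40 (gene ID 20893, chr6:108660629-108666925) was low in naive R1 and R2, high in naive R3 and rose with CAWS in R1 and R2. Bhlhe41 (gene ID 79362, chr6:145858243-145865420) overlapped between the 3 naive populations and fell with CAWS in R3. The 250 bases before the RefSeq start of Bhlhe41, chr6:145865421-145865670 on the minus strand of GRCm38.p6, are shown because they hold the E-box that both proteins are known to bind, CACGTG (in capitals), 153 bases before the start.

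Bhlhe41: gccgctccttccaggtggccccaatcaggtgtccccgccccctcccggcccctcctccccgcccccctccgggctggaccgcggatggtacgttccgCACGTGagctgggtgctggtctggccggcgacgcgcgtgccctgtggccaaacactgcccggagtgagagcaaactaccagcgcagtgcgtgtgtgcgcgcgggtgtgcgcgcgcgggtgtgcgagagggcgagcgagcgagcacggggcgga

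The E-box reads the same on both strands, overlaps no other motif searched and is present in 6.02% of 32851 RefSeq windows of this length. Of the 9 genes, 6 have such windows in the table used (10 windows), and that of Bhlhe41 was the 1 of the 10 with CACGTG. This describes the letters and not binding.

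Bhlhe40 measured 2.26, 2.27 and 1.37 CPM in naive R2 and 23.6, 39.8 and 24.1 in CAWS R2 with no overlap (log2 fold change 3.91 ± 0.50, adjusted p = 5.32e-05). R1 went from 3.37, 2.79 and 3.14 to 9.15, 16.4 and 9.14 CPM, also with no overlap (1.88 ± 0.52, adjusted p = 0.0296). R3 measured 24.4, 25.5 and 16.9 CPM in naive mice and 30.0, 20.5 and 25.5 after CAWS, and the groups overlapped (0.18 ± 0.38, adjusted p = 0.795, 95% interval -0.64 to 1.00). The rise in R2 was larger than the change in R3 (interaction -3.73 ± 0.64, adjusted p = 0.00253). The difference between the R3 and R1 effects did not pass (-1.70 ± 0.65, adjusted p = 0.235), and it passed by DESeq2 (0.035). After CAWS the R2 libraries reached the range of R3 and of the monocytes. The R1 call did not hold with limma voom (0.0632), with no filter on low counts (0.065) and without any 1 naive R1 library or CAWS R1 replicate 2 (0.0691 to 0.116).

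In naive mice Bhlhe40 was higher in R3 than in R1 (2.84 ± 0.49, adjusted p = 0.000289) and R2 (3.52 ± 0.51, adjusted p = 0.000115). After CAWS, R2 and R1 differed by 1.35 ± 0.39, which missed the threshold (adjusted p = 0.0679) and passed by DESeq2 (0.00768). R3 was above R1 by 1.14 ± 0.40 (adjusted p = 0.0402), a call lost with no filter on low counts (0.07) and without CAWS R1 replicate 1 or 3 or any CAWS R3 library (0.0505 to 0.129). The monocytes measured 70.2, 16.2 and 58.0 CPM, with replicate 2 at the level of naive R3 and the other 2 above every macrophage library. Bhlhe40 in CAWS R3 differed from the monocytes by -0.93 ± 0.37, adjusted p = 0.0442, a call lost in 10 of 15 alternative runs. Among these were no filter on low counts (0.0962), the stricter filter (0.0501) and only the groups compared (0.160). It was also lost without any 1 CAWS R3 library or monocyte replicate 1 or 3 (0.0565 to 0.251). The naive R3 call against monocytes (-1.11 ± 0.36, adjusted p = 0.0143) was lost with only the groups compared (0.0687). It was also lost without naive R3 replicate 3 or monocyte replicate 1 or 3 (0.0512 to 0.0808). The CAWS R2 comparison with monocytes moved from -0.72 ± 0.36, adjusted p = 0.0894 to -1.13 ± 0.22 (adjusted p = 0.000175) without monocyte replicate 2. Of 8 markers of cDC2 dendritic cells, 4 were higher in naive R3 than in naive R1, and 4 than in naive R2. With CAWS, 4 rose and 1 fell in R1, 5 rose and 1 fell in R2, and 0 rose and 1 fell in R3. Their sum was 1246 to 1440 CPM in naive R1 and 656 to 811 in CAWS R1. The part of the cDC2 markers, and of the monocyte markers that were higher in R3 or rose in CAWS R1 and R2, was not tested.

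Bhlhe41 measured 6.25, 6.75 and 10.7 CPM in naive R3 and 1.41, 2.92 and 2.34 in CAWS R3. The CAWS libraries lay below all naive ones, a fitted 3.49-fold fall (log2 fold change -1.80 ± 0.30, adjusted p = 0.000184). R1 measured 8.12, 9.62 and 13.9 CPM naive and 13.5, 14.2 and 12.1 after CAWS (0.35 ± 0.21, adjusted p = 0.329), and R2 9.17, 10.8 and 9.47 and 9.99, 12.3 and 11.1 (0.19 ± 0.21, adjusted p = 0.643). Both pairs overlapped. The R3 effect differed from that in R1 (-2.15 ± 0.36, adjusted p = 0.000898) and in R2 (-1.99 ± 0.37, adjusted p = 0.00205), and these 2 calls held in every alternative run. After CAWS, Bhlhe41 in R3 was below R1 (-2.57 ± 0.27, adjusted p = 1.33e-07) and R2 (-2.31 ± 0.28, adjusted p = 1.86e-06). In naive mice R3 and R1 differed by -0.41 ± 0.22 (adjusted p = 0.19), which passed without naive R3 replicate 3 (0.039).

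The 3 monocyte libraries held 1, 2 and 0 counts of Bhlhe41. Against these 3 counts, naive R1 was 165-fold higher by the ratio of CPM (95% counting interval 56.0 to 801) and CAWS R3 35.8-fold higher (11.9 to 177), and the intervals cover counting error only. Classical monocyte markers were higher in CAWS R3 than in naive R3, by sums of 3775 to 4450.2 against 2193 to 2889.8 CPM, while Bhlhe41 was lower, and their part was not tested.

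Per length, Bhlhe40 made up 12.3% ± 3.33 of the pair's summed RPKM in R1 of naive mice, 8.35% ± 2.00 in R2 and 56.5% ± 12.5 in R3. After CAWS its share was 27.9% ± 5.74 in R1, 53.8% ± 5.22 in R2 and 83.4% ± 7.23 in R3, and it was 99.3% ± 0.991 in the monocytes. In each population the 3 CAWS libraries had a higher share than the 3 naive ones. Naive R3 replicate 3 stood apart from its group, at 42.1% against 64.1% and 63.3%.

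**Figure D4:**
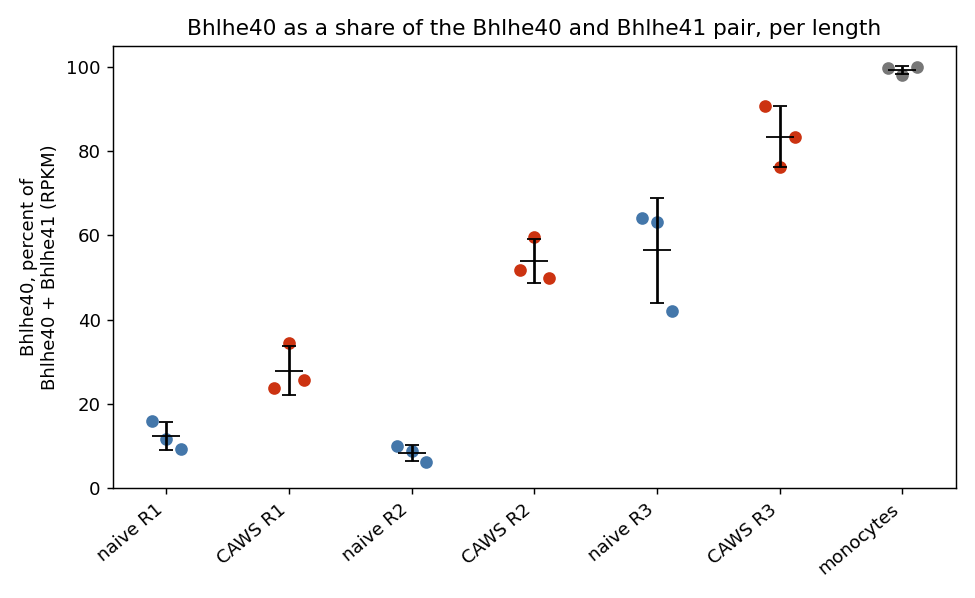
Share of Bhlhe40 in the summed RPKM of Bhlhe40 and Bhlhe41 (percent) in every library, with the group mean and SD in black, naive in blue, CAWS in red and monocytes in grey. Shares reach at most 15.9% in naive R1 and R2, lie between 76.2% and 90.7% in CAWS R3 and at 98.2% or more in the monocytes.

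Of 15 clock and Id genes around the pair, 5 were lower and 1 higher in naive R3 than in naive R1 (median -0.38). In CAWS R3, 9 were lower and 1 higher than in CAWS R1 (median -0.97, beside -0.03 over all genes). Of all genes tested, 10.7% were lower and 12.5% higher in the naive comparison, and 16.3% and 13.1% after CAWS. Arntl, the core clock activator BMAL1, measured 56.6 ± 0.134 CPM in naive R1, 22.2 ± 1.03 in naive R3, 62.8 ± 2.61 in CAWS R1 and 17.7 ± 2.58 in CAWS R3 (R3 against R1 -1.35 ± 0.11, adjusted p = 1.14e-08 naive and -1.82 ± 0.11, adjusted p = 1.07e-10 after CAWS). Per3 differed likewise (-1.62 ± 0.27, adjusted p = 8.68e-05 and -1.84 ± 0.26, adjusted p = 1.29e-05). With CAWS, 2 of the list rose in R1 (beside 6.07% of all genes), 2 in R2 (6.79%) and 2 fell in R3 (8.29%). The clock output gene Dbp rose in R1 (1.00 ± 0.21, adjusted p = 0.00509) and R2 (0.97 ± 0.22, adjusted p = 0.00639). Id2, an inhibitor of bHLH factors, rose in R2 (1.35 ± 0.28, adjusted p = 0.00322), and Id1 and Id3 fell in R3 (-1.49 ± 0.39, adjusted p = 0.0125 and -1.91 ± 0.51, adjusted p = 0.0184). The hour of collection was not in the fit, and its part in the CAWS effects on clock genes was not tested.

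The genes most like each of the 9 were taken by Pearson's r of log2 CPM over all 21 libraries, among 7883 genes above a set mean level. These values are descriptive, since the libraries share 7 groups. Bhlhe41 was most like Spats2 (r = 0.988), Cp, which encodes ceruloplasmin (0.987), and Timp2, a metalloproteinase inhibitor (0.985), and Cp measured 69.2 ± 32.2 CPM in naive R3 and 28.9 ± 3.74 in CAWS R3. Maf was most like the complement receptor C5ar1 (0.992) and the sialyltransferases St6gal1 (0.989) and St6galnac4 (0.984). Mef2c was most like the adenylyl cyclase Adcy9 (0.987), the ATP receptor P2rx7 (0.980) and Ppp1r3b (0.977). Cebpb was most like the cytokine gene Osm (0.982), the retinoic acid receptor Rara (0.977) and Camkk2 (0.974). Spi1 was most like Cyp4f16 (0.967) and B9d2 (0.960). Bhlhe40 was most like the glycolytic gene Pfkp (0.930), the integrin Itgb7 (0.924) and Pbxip1 (0.921). Cebpa was most like Zfp146 (0.925), Trim36 (0.914) and Nab2 (0.912). Irf8 was most like Cdc14a (0.917), the cytokine receptor subunit Csf2rb (0.892) and Icam1 (0.888). Nr1h3 was most like Il1rn, the interleukin-1 receptor antagonist (0.916), the interferon-inducible GTPase Gbp2 (0.894) and the kinase Ikbke (0.877), and Il1rn measured 7.42 ± 1.17 CPM in naive R2 and 50.7 ± 9.58 in CAWS R2.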

How the data were processed

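Per the labels' protocols, libraries of sorted-cell RNA were prepared with Illumina's TruSeq kit. The authors deposited 1 table of whole-number read counts per gene for 21 libraries, and the 21 single-library files held the same counts as that table. The submitters' processing notes name featureCounts and mm10, and the aligner, annotation, versions and strand setting were not given in the sources used here. Gene IDs were matched to symbols and RefSeq coordinates of GRCm38.p6, where 25275 of 27179 IDs had a symbol.

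Genes kept by edgeR's filterByExpr (minimum count 10, minimum total 15) were scaled by TMM (factors 0.9093 to 1.065) and tested with edgeR 4.0.16 (R 4.3.3), glmQLFit with robust estimation and glmQLFTest, 1 mean per group, 14 residual degrees of freedom, 18 comparisons, two-sided, with Benjamini-Hochberg adjustment over 13275 genes. The SE is the log2 fold change divided by the square root of F. The pipeline was tested on simulated data with 200 changed genes. The simulation gave all genes 1 fixed dispersion and, before the changes, 1 mean per gene over all groups. For CAWS against naive in R2 it recovered 16% of 1.5-fold, 62% of 2-fold and 100% of 4-fold changes. For the difference between the R3 and R2 effects it recovered 4%, 18% and 94%. In the data the spread differed between genes and groups, so these rates do not describe the 9 members. Replicate libraries of each group differed beyond sampling noise, so each was counted once.

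The members and the lists were chosen with earlier results of these data known. Named were all 9 members in every comparison, their closest relatives, up to 3 genes with the smallest p from each list, and the 3 genes most like each member (a floor of 4 on the mean log2 CPM in their highest group, prior count 2, without unnamed gene models). Some genes that this rule names are not reported here. There were 13 pathway lists (178 entries) and 17 cell type marker lists (129 genes, of which 1 was not matched). No list was tested as a set. Counts of list genes are to be read beside the shares of all genes given for the same comparison. No such share is given for genes that fell with CAWS in R1, and nothing is read from the counts of those. Besides the motifs printed with the sequences, GAGGAA for PU.1 was searched, and TTGCNNAA for C/EBP, TATTTA for MEF2, AGGTCA for nuclear receptors, TGCTGA for Maf and the interferon-stimulated response element by name, on both strands in 250 bases before each RefSeq start.

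The series' text says that each pool of hearts was divided into the 3 populations, so within a treatment libraries with the same replicate number were read as 1 pool. The deviations of such libraries from their group means correlated at 0.0162 to 0.253 in 18 of 18 pairs over all tested genes, and at 0.151 to 0.638 over the 7064 genes whose mean log2 CPM reached 4. Same-numbered libraries across treatments, which cannot share a pool, had correlations of -0.296 to 0.263 in 27 pairs over those 7064 genes. The 18 pairs with monocytes had -0.182 to 0.703, the highest being CAWS R3 with naive monocytes, which cannot share mice. Over all genes these reached 0.121 and 0.341. The sample titles do not say whether the spleens and hearts of naive donors came from the same mice. The reading as 1 pool thus rests on the series' text and not on this check. Alternatives were DESeq2 1.42.0, limma 3.58.1 (voom with sample weights), RLE scaling, no or a stricter filter on low counts (5 CPM in 3 libraries), only the groups compared, blocks by replicate number or pool, and each library left out. Added after seeing the data were edgeR's older fit, only the 18 macrophage libraries, and leaving out naive R1 replicate 2, naive R3 replicate 2 and monocyte replicate 2 together. No column was left unused.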

Additional observations from a re-analysis of the deposited data

Results flagged for a closer look

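Between populations, 3 differences of the CAWS effect in the 9 genes passed the interaction test and stand out. The CAWS effect on Bhlhe41 was lower in R3 than in R1 by a log2 difference of -2.15 (SE 0.36, adjusted p = 0.000898 by edgeR). Against R2 it was lower by a log2 difference of -1.99 (SE 0.37, adjusted p = 0.00205). Its CAWS and naive libraries were apart in R3 in 3 of 3 libraries and overlapped in R1 and R2. The effect on Bhlhe40 was lower in R3 than in R2 by -3.73 (SE 0.64, adjusted p = 0.00253), with every CAWS R2 library above every naive R2 library and overlapping groups in R3. Among close relatives of the 9, the effect on Spib (PU.1 family) differed between R3 and R2 by -3.31 (SE 0.78, adjusted p = 0.0164), and that on Irf4 by -0.65 (SE 0.17, adjusted p = 0.0382). For the 2 Bhlhe genes these calls held in every alternative run.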

How the results depend on the processing

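Of 162 results for single members (9 genes in 18 comparisons), 79 passed with edgeR, and 66 of these kept the call under every alternative run, while 62 of the others stayed below the threshold throughout. 0 reversed. The number of members past the test moved by over 1.5 times in these settings. CAWS against naive in R1 had 6 members past the test with only the groups compared and 6 with only the 18 macrophage libraries, against 3. Naive R2 against naive R1 had 2 with only the groups compared, with limma voom, with the 18 macrophage libraries and without the 3 libraries together (naive R1 replicate 2, naive R3 replicate 2 and monocyte replicate 2), against 1. Naive R3 against naive R2 had 5 with only the groups compared and 4 in the other 3 of these settings, against 2. CAWS R2 against CAWS R1, with 1, had 2 by DESeq2, 2 with the stricter filter, 4 with only the groups compared, 3 with limma voom, 0 with edgeR's older fit, 4 with the 18 macrophage libraries and 3 without the 3 libraries. CAWS R3 against CAWS R2 had 4 with only the groups compared, against 2. The difference of the CAWS effects between R2 and R1 had 1 by DESeq2, against 0, and that between R3 and R1 had 2 by DESeq2, with only the groups compared and with the 18 macrophage libraries, against 1. The share of all genes called under each setting is not given beside these counts, so nothing about the 9 genes is read from them. The cause was not tested.

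With 1 library left out at a time, members past the test ranged from 0 to 2 for CAWS against naive in R1, 3 to 4 in R2 and 3 to 4 in R3. The range was 1 to 1, 3 to 6 and 2 to 2 for naive R2 against R1, R3 against R1 and R3 against R2, and 0 to 2, 3 to 5 and 1 to 2 for the same pairs after CAWS. Against monocytes it was 9 to 9 for naive R1 and R2, 8 to 9 for naive R3 and CAWS R1, and 7 to 8 for CAWS R2 and R3. For the differences between CAWS effects it was 0 to 0, 1 to 1 and 2 to 2.

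With the replicate number as a block across all groups, 158 of 162 results kept their call. Mef2c with CAWS in R1 (adjusted p = 0.0482) and Nr1h3 in CAWS R3 against CAWS R1 (0.0144) gained it. Bhlhe40 lost it in CAWS R3 against CAWS R1 (0.0537) and against monocytes (0.0578). Members past the test numbered 4, 4 and 4 for CAWS against naive in R1, R2 and R3 with this block. Across treatments, where the number is only a label, same-numbered libraries correlated at -0.0511 to 0.121 over 27 pairs, and with monocytes at -0.0383 to 0.341 over 18 pairs. With a block for the pool inside each treatment, 80 of 81 results kept their call, and Nr1h3 in CAWS R3 against CAWS R1 gained it.

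With 1 library left out, the number of list genes past the test fell to 0 for the C/EBP regulators and the Maf and Bach and MiT families with CAWS in R2, and for the ETS list in R3. Bhlhe40, Bhlhe41 and Nr1h3 had low counts, which limits how precisely their changes are known. With 3 libraries per group, changes under 2-fold can be missed. Some of that size passed, such as Mef2c with CAWS in R2 (-0.60, adjusted p = 0.00315 by edgeR).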

Other observations

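Other lineage factors were read from the same fit. Of 4 MiT family genes, Mitf, a regulator of lysosomal genes, rose with CAWS in R2 (0.46 ± 0.13, adjusted p = 0.0306) and R3 (0.54 ± 0.14, adjusted p = 0.0117) and had 0.34 ± 0.13, adjusted p = 0.119 in R1. Of 7 other Maf and Bach genes, Maff, a small Maf protein, rose in R1 (2.15 ± 0.62, adjusted p = 0.0323) and R2 (1.28 ± 0.37, adjusted p = 0.0301), and its levels were 0.326 ± 0.322 and 1.58 ± 0.442 CPM in naive and CAWS R1. Of 23 further myeloid lineage factors, 1 rose (beside 6.07% of all genes) and 1 fell in R1. In R2 1 rose (6.79%) and 1 fell (3.50%), and in R3 3 fell (8.29%).

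Tal1, a bHLH factor of blood stem cells and erythroid cells, was the 1 gene of these 23 to fall in all 3 populations (R1 -0.90 ± 0.22, adjusted p = 0.0123, R2 -1.39 ± 0.23, adjusted p = 0.000317, R3 -1.44 ± 0.34, adjusted p = 0.00607). It measured 22.7 ± 4.70 CPM in naive R1 and 12.2 ± 2.78 in CAWS R1. Mycl rose in R1 (1.54 ± 0.24, adjusted p = 0.000318), and Zbtb46, a factor of classical dendritic cells, rose in R2 (1.08 ± 0.31, adjusted p = 0.0284). Of 8 cDC2 markers, Zbtb46 among them, 5 rose and 1 fell in R2, and of 7 cDC1 markers 2 rose and 1 fell, with sums of 1424 to 1529.6 and 531 to 571 CPM in naive R2 and 1055 to 1555 and 423 to 517 in CAWS R2, and their part was not tested. In R3 the immediate-early genes Egr1 (-2.32 ± 0.67, adjusted p = 0.03) and Nr4a2 (-2.19 ± 0.71, adjusted p = 0.0407) were the others that fell. Of early-response and stress genes picked after their values were seen, Fos measured 335, 230.0 and 596 CPM in naive R3 and 222, 123 and 168 in CAWS R3 (-1.18 ± 0.45, adjusted p = 0.0956) and Hspa1a 156, 64.7 and 297 and 42.7, 37.0 and 62.9 (-1.85 ± 0.70, adjusted p = 0.0925), neither past the threshold. Jun had -0.36 ± 0.18, adjusted p = 0.189. Naive R3 replicate 3 was the highest in all 3, and their part in the Egr1 and Nr4a2 values was not tested. Erythroid markers summed to 0 to 0.297 CPM in naive R1 and 0.105 to 1.74 in CAWS R1, and their part in the Tal1 values was not tested.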
